A study of Mus musculus with 2 samples.

Results

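The transcripts of 10 immediate-early response genes (Fos, Fosb, Jun, Junb, Jund, Egr1, Egr2, Ier2, Ier3 and Myc) were compared by RNA-seq between E14 mouse embryonic stem cells (ESCs) and E14-Sox2 TA/WT cells. The genes were taken by symbol from a table of 24532 genes, and every one of the 10 had reads in both libraries. E14 is a long-established line of male mouse ESCs, here kept in medium with serum and leukemia inhibitory factor (LIF). E14-Sox2 TA/WT, below called the mutant cells, is a clone derived from E14 that carries the T258A change on a single allele of Sox2. The change was introduced by CRISPR/Cas9 cleavage and repair from a donor of single-stranded DNA, so that an O-GlcNAc site of this pluripotency factor is lost from that allele. Such clones were selected and normally kept in serum with LIF and 2i (the Mek inhibitor PD0325901 and the Gsk3 inhibitor CHIR99021), and were used some passages after 2i was removed. Genotype, clone and culture history therefore differed together between the libraries and cannot be told apart. Each genotype had 1 library, which leaves every difference below without a replicate check or a p-value.

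Immediate-early genes are transcribed within minutes of a stimulus such as serum, without new protein synthesis, through kinases that act on factors already bound to their promoters. Many encode transcription factors: Jun and Fos proteins pair to form the factor AP-1, Egr proteins bind GC-rich sites through zinc fingers, and Myc pairs with Max. Their transcripts are short-lived, and in mouse ESCs Myc is also known as a target of LIF signaling that favors self-renewal.

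The libraries held 60263536 counted reads (E14) and 44609228 (mutant). TPM, in which reads are scaled per length of transcript and to the total of the library, was used for levels, and differences are given as log2 TPM ratios of mutant over E14 cells. Each ratio carries a 95% interval, which covers the counting of reads alone. Such intervals left out no change for 85.4% of all genes tested, so they describe depth rather than spread between cultures. Pluripotent cell markers were high in both libraries, with a summed TPM of 12109 in E14 and 9073 in mutant cells over 8 genes. Dppa5a made up the largest part of this sum (6877 and 4429). Of the 8 genes, 3 were higher and 5 lower in mutant cells. Nanog was the only one more than 2-fold lower (TPM 527 and 251, log2 ratio -1.07), and Sox2 had a log2 ratio of -0.44. The higher ones were Utf1 (0.24), Esrrb (0.10) and Pou5f1 (0.03). The summed TPM of 7 fibroblast markers, the cells of a feeder layer, was 43.1 and 16.6, with no reads for Postn, Dcn or Lum. Thy1 made up most of this sum (40.1 and 11.4), whereas the collagen genes Col1a2 (43 and 109 reads) and Col3a1 (15 and 151 reads) were higher in mutant cells and Col1a1 had a log2 ratio of 0.15. The sum was 69.7 and 38.3 for 7 trophoblast markers, of which Elf5 had no reads. Tfap2c made up most of it (50.9 and 16.1), and Krt7 and Ascl2 were also lower, whereas Cdx2 (32 and 554 reads, TPM 0.474 and 12.2) and Gata3 (33 and 50 reads) were higher and Hand1 had a log2 ratio of 0.16. The sum was 46.9 and 17.4 for 7 primitive endoderm markers, and each of the 6 that reached a mean TPM of 1 was lower in mutant cells. The part of such minor cells in the ratios below was not tested, and fewer cells of a type and less RNA per cell cannot be told apart in bulk RNA.

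Myc and Junb were higher in mutant cells, by 3.76-fold and 3.18-fold, whereas Jund was 2.34-fold lower. Ier2, Ier3 and Jun differed by less than 2-fold, and Egr1 was at nearly the same level. Fos was 2.73-fold lower but stayed under a TPM of 10 in both libraries. Fosb and Egr2 were barely detected. Genes under a TPM of 10 in both libraries were set aside. This filter was passed by 7 of the 10 genes, of which 2 (Myc and Junb) were more than 2-fold higher and 1 (Jund) more than 2-fold lower. Among all 9094 genes past this filter, 4.17% were more than 2-fold higher and 4.07% more than 2-fold lower. The gene just outside the filter was Fos (highest TPM 8.35), and those just inside were Jun (13.9) and Ier3 (14.4).

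**Figure D1:**
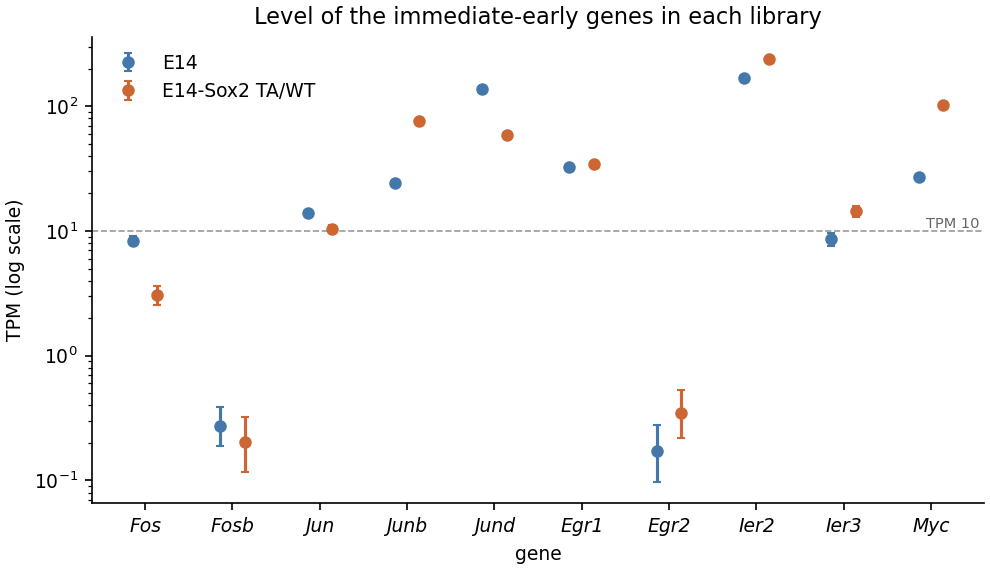
TPM (log scale) of each immediate-early gene in the E14 (blue) and mutant (orange) libraries, with exact 95% Poisson counting intervals and 1 library per genotype. Junb and Myc lie higher and Jund and Fos lower in mutant cells, whereas Fosb and Egr2 lie below a TPM of 1 in both libraries.

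**Figure D2:**
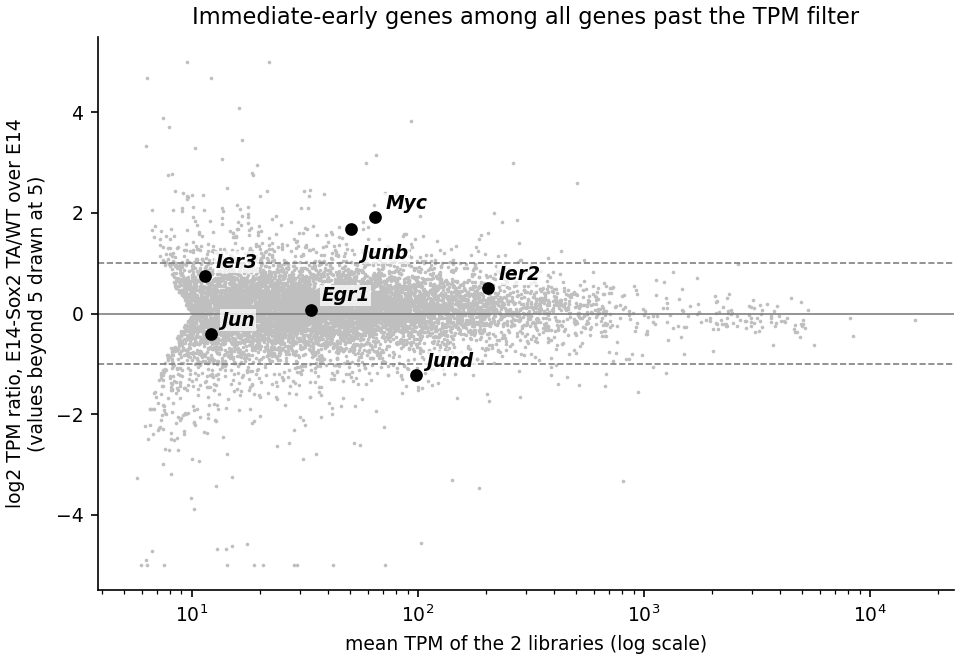
Log2 TPM ratio (mutant over E14) against the mean TPM of the libraries (log scale) for all 9094 genes that reached a TPM of 10 in either library (gray), with the 7 immediate-early genes past this filter in black and dashed lines at 2-fold. Myc (1.91) and Junb (1.67) lie above the upper line, Jund (-1.23) lies below the lower line, and the other 4 lie between them.

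In E14 cells the order of TPM was Ier2, Jund, Egr1, Myc, Junb, Jun, Ier3, Fos, Fosb and Egr2. The counting intervals of Ier3 and Fos overlapped in this order, as did those of Fosb and Egr2. In mutant cells the order was Ier2, Myc, Junb, Jund, Egr1, Ier3, Jun, Fos, Egr2 and Fosb, and the intervals of neighbors overlapped only for Egr2 and Fosb. By deposited TPM, Ier2 was thus the highest in both libraries, while Myc and Junb stood above Jund and Egr1 only in mutant cells. The place of Jund depends on the length taken for it, as described below for the Jun family. With its matched GENCODE transcript (1668 bases, 12449 reads in E14), Jund would stand above Ier2 (1522 bases, 8101 reads) in E14 cells. In mutant cells it would then stand above Junb.

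Fos (chr12:85473890-85477274, GRCm38), which pairs with Jun proteins and is often used as a mark of recent stimulation, had 551 reads in E14 and 135 in mutant cells. Its TPM was 8.35 and 3.05, a log2 ratio of -1.45 (95% counting interval -1.73 to -1.18). Of the genes past the filter, 1.85% had a ratio below that of Fos. Fosb (chr7:19302696-19310118), a close relative of Fos, had 33 and 17 reads and a TPM of 0.275 and 0.202. Its log2 ratio of -0.44 had an interval from -1.38 to 0.44, so that a difference in Fosb was not detectable at this depth.

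The other Fos relatives showed a different make-up of this small pool. Fosl2, a Fos-related antigen, had 159 reads in E14 and 474 in mutant cells, a TPM of 0.860 and 3.83, and a log2 ratio of 2.15 (interval 1.89 to 2.42). Fosl1 had 79 and 63 reads and a log2 ratio of 0.24 (interval -0.27 to 0.73). The summed TPM of Fos, Fosb, Fosl1 and Fosl2 was 10.9 in E14 and 8.81 in mutant cells. Fos made up 76.3% of this sum in E14 and 34.7% in mutant cells, and Fosl2 made up 7.86% and 43.4%. By TPM alone, Fosl2 held the largest share of the Fos family in mutant cells (3.83, beside 3.05 for Fos). The counting intervals of these levels were not compared.

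Jun (chr4:95049036-95052222), the founding subunit of AP-1, had 1391 reads in E14 and 704 in mutant cells. Its TPM was 13.9 and 10.5, a log2 ratio of -0.41 (interval -0.54 to -0.27). Junb (chr8:84976909-84978748), which can oppose Jun at some AP-1 targets and is a known target of Stat3 downstream of LIF, had 1399 and 2985 reads. Its TPM was 24.1 and 76.9, a log2 ratio of 1.67 (interval 1.58 to 1.76), and 0.935% of the genes past the filter had a higher ratio. Jund (chr8:70697739-70700616), the Jun relative known for steady rather than induced transcription, had 12449 and 3566 reads. Its TPM was 137 and 58.7, a log2 ratio of -1.23 (interval -1.28 to -1.17), and 2.68% of the genes past the filter had a lower ratio. Junb and Jund thus differed in opposite directions, while Jun differed by less than 2-fold.

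The sum of the Jun family differed by less than 2-fold. Jun, Junb and Jund together had a TPM of 175.3 in E14 and 146.0 in mutant cells, a log2 ratio of -0.26. The ratio of this sum lay between -0.41 and -0.29 under the other scalings. It was -0.53 centred on chromosome medians and -0.04 with the trend on GC content and length removed. Jund made up 78.3% of this sum in E14 and 40.2% in mutant cells, Junb made up 13.8% and 52.6%, and Jun made up 7.90% and 7.16%. The TPM of Jund was 5.69 times that of Junb in E14 cells, whereas the TPM of Junb was 1.31 times that of Jund in mutant cells. Which of these genes ranked first in mutant cells depended on the length taken for Jund. The deposited values imply a Jund transcript of 2923 bases, near the 2878 bases of the RefSeq gene, while the matched GENCODE transcript has 1668 bases. With reads per kb of the GENCODE transcripts, Jund made up 86.1% of the Jun family in E14 and 53.3% in mutant cells. The share of Jund was lower in mutant cells with either length.

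**Figure D3:**
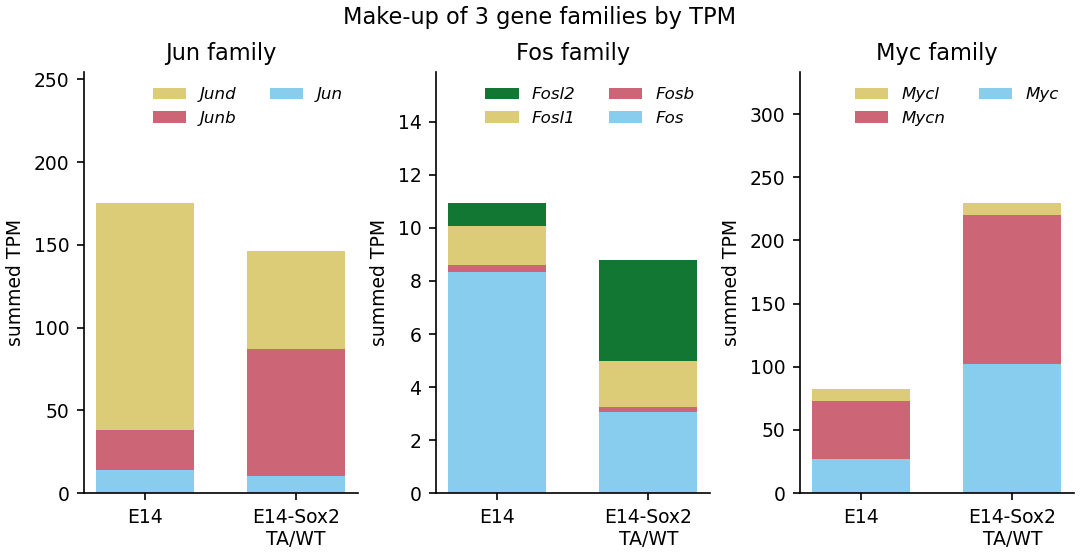
Summed TPM of the Jun, Fos and Myc families in both libraries (linear axes from 0, 1 library per bar, no error bar), with each colored segment standing for 1 gene. Jund fills 78.3% of the E14 bar of the Jun family and 40.2% of the mutant bar, Fosl2 grows from 7.86% to 43.4% of the Fos family, and Myc and Mycn both grow in the Myc family.

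Both Jun relatives that differed more than 2-fold lie on chromosome 8, as does Ier2, whose end is 314057 bases from the near end of Junb. The median log2 ratio of the 548 genes past the filter on chromosome 8 was 0.28, the direction of Junb and the opposite of Jund. Centred on this median, Junb had a log2 ratio of 1.39, Jund of -1.51 and Ier2 of 0.22. The handling of strand was not given in the sources used here, so reads from overlapping genes on the opposite strand could not be told apart. Junb overlaps a model of Prdx2, an antioxidant enzyme gene, by 351 bases, and Prdx2 had a log2 ratio of 0.48. Jund overlaps the antisense gene Gm11175 by 919 bases and Jun overlaps the antisense gene Junos by 689 bases. Jund was also the gene of highest GC content among the 10 (67.1%), and with the trend on transcript length and GC content removed its log2 ratio was -0.98, just short of 2-fold. This removal used the length and GC content of the GENCODE transcript of 1668 bases, not of the 2923 bases that the deposited values imply. Only 9 genes past the filter, Jund among them, had a GC content at or above that of Jund, and their median log2 ratio was -0.44. The GC trend was held flat beyond the median of the highest of its 20 bins, where Jund lies.

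Egr1 (chr18:34861207-34864956), a zinc-finger factor induced through Erk and Srf, had 3162 reads in E14 and 2240 in mutant cells. Its TPM was 32.7 and 34.5, a log2 ratio of 0.08 (interval 0.00 to 0.16), close to the median of 0.08 over all genes past the filter. Its ratio ranged from -0.06 to 0.12 under 9 other settings and was negative under 4 of them, 3 of which shift all genes nearly alike. Egr2 (chr10:67534469-67542188), known for its roles in hindbrain and myelinating cells, had 16 and 22 reads and a TPM of 0.171 and 0.349. Its log2 ratio of 1.03 had an interval from 0.03 to 2.06, and it did not pass the filter. Egr1 made up 98.2% of the summed TPM of Egr1 and its relatives in E14 and 97.3% in mutant cells. Egr3 had 2 and 17 reads and Egr4 had 28 and 19, all under a TPM of 1. The Egr corepressor Nab2, itself a target of Egr factors, had 439 and 597 reads and a TPM of 5.60 and 11.3, a log2 ratio of 1.01 (interval 0.83 to 1.19). Its relative Nab1 had a log2 ratio of 0.38 (interval 0.26 to 0.51).

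Ier2 (chr8:84661331-84662852), which encodes a nuclear protein, had the highest deposited TPM of the 10 in both libraries. It had 8101 reads in E14 and 7668 in mutant cells, and a TPM of 169 and 239. The log2 ratio of Ier2 was 0.50 (interval 0.45 to 0.54), and 18.2% of the genes past the filter had a higher ratio. Ier3 (chr17:35821713-35822911), linked to survival and Erk signaling, had 295 and 331 reads and a TPM of 8.59 and 14.4. Its log2 ratio was 0.74 (interval 0.51 to 0.97), short of 2-fold, and was 1.05 with the trend on GC content and length removed. Both Ier genes thus had a higher TPM in mutant cells.

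Myc (chr15:61985341-61990361) had 2047 reads in E14 and 5158 in mutant cells. Its TPM was 27.1 and 102, a log2 ratio of 1.91 (interval 1.84 to 1.99), and 0.638% of the genes past the filter had a higher ratio. The 396 genes past the filter on chromosome 15 had a median log2 ratio of -0.14, the opposite direction. Mycn, the relative that shares much of the role of Myc in ESCs, had 3719 and 6478 reads and a TPM of 45.5 and 118. The log2 ratio of Mycn was 1.38 (interval 1.32 to 1.44). Mycl had 1093 and 717 reads and a log2 ratio of -0.04 (interval -0.18 to 0.10). The summed TPM of the family was 82.4 in E14 and 229.7 in mutant cells. Mycn was above Myc in both libraries, by 1.68 times in E14 and 1.16 times in mutant cells, and Myc made up 32.9% and 44.4% of the sum.

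The ratios of Myc, Junb, Jun, Jund, Fos, Ier2 and Ier3 kept their sign under all 9 other settings tried, which were other scalings, pseudocounts, centrings and removal of the trend on GC content and length. Myc ranged from 1.77 to 2.13, Junb from 1.39 to 1.89, Jund from -1.51 to -0.98 and Fos from -1.60 to -1.20. Myc and Junb stayed past 2-fold under each of them.

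**Figure D4:**
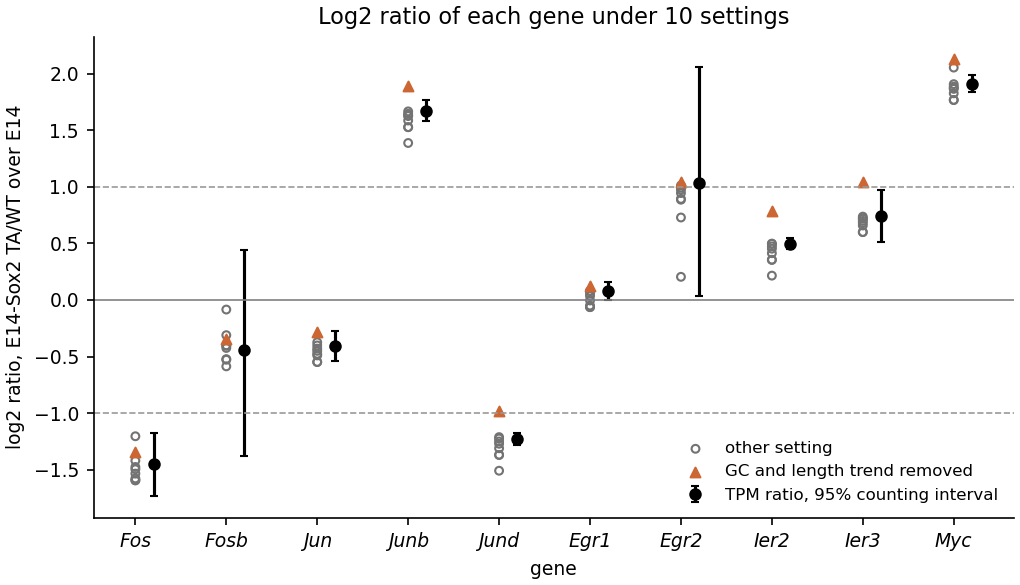
Log2 ratio (mutant over E14) of each immediate-early gene, with the TPM ratio and its 95% counting interval in black, the ratio after removal of the trend on GC content and length as an orange triangle, and the other 8 settings as gray circles (dashed lines, 2-fold). Settings moved Ier2, Junb and Jund most among the well-counted genes, and the Egr1 ratio lay on both sides of 0.

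Genes that pair with AP-1 subunits or compete with them were described next. Of 14 such partners, 10 reached a mean TPM of 1, and 7 of these were higher and 3 lower in mutant cells, with a median log2 ratio of 0.32. Among the 13269 genes of the table that reached this level, 53.2% were higher and the median was 0.04. Over the 6 partners with a mean TPM of at least 10, the median log2 ratio was only 0.05. Past the TPM filter, 4.17% of all genes were more than 2-fold higher and 4.07% more than 2-fold lower. Of the 6 partners past this filter, none was more than 2-fold higher and 2 were more than 2-fold lower. These were Jdp2, a repressor of AP-1, with 1013 reads in E14, 132 in mutant cells and a log2 ratio of -2.37, and Atf3, a stress-induced partner, with 923 and 250 reads and a log2 ratio of -1.31. Atf2, a Jun partner, had a log2 ratio of 0.65, Mafg of 0.43, Mafk of 0.38 and Maff of 0.27. Batf3 had a log2 ratio of 0.38 with an interval from -0.19 to 0.95, and Atf7 had one of -0.16. Among the partners under a mean TPM of 1, Batf had 36 reads and Batf2 10 reads in E14 against none in mutant cells, and Maf had 8 and 28. The floor of 3 reads was 0.0498 CPM (counts scaled to the library total) in E14 and 0.0673 CPM in mutant cells.

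A wider list of 35 other immediate-early genes had no common direction. Of the 30 that reached a mean TPM of 1, 15 were higher and 15 lower, with a median log2 ratio of 0.00. Past the filter, 4 of 26 were more than 2-fold higher and 3 more than 2-fold lower, beside 4.17% and 4.07% of all genes. The 4 higher were Cyr61 (1496 and 4462 reads, log2 ratio 2.15) and Ctgf (1.41), both secreted matrix proteins known as targets of Srf and Yap, Klf6 (1.23), a zinc-finger factor, and Zfp36 (1.07), which promotes decay of AU-rich transcripts. The 3 lower were Cebpb (734 and 125 reads, log2 ratio -1.97), a leucine zipper factor, Atf3, and Ier5l (-1.14), a relative of the Ier genes. Arc, best known from synapses, followed at -0.79. The 5 genes under a mean TPM of 1 were Egr3, Egr4, Nr4a2 (73 and 83 reads), Nr4a3 (4 and 0) and Npas4 (5 and 7). Immediate-early genes were therefore spread to both sides, as were the 10 genes described above, of which 8 reached a mean TPM of 1 (5 higher and 3 lower, median 0.29).

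The kinases and bound factors that act on these promoters showed smaller differences. Of 20 such genes, 13 were higher and 7 lower, with a median log2 ratio of 0.12, and the median was -0.022 with library totals in place of TPM. For all genes that reached a mean TPM of 1, these medians were 0.04 and -0.10. Of the 14 past the filter, only Creb1, which binds cAMP response elements, was more than 2-fold higher, and none was more than 2-fold lower. Among all genes past the filter these shares were 4.17% and 4.07%. The log2 ratio of Creb1 was 1.01, barely past 2-fold, with an interval from 0.93 to 1.09. The Srf partners Elk3 (1.17) and Elk4 (1.05) were higher at a TPM under 10, and the Srf coactivator Mkl2 had a log2 ratio of 0.67. The lowest were Rps6ka4, a kinase downstream of Erk and p38 (-0.60), Atf1 (-0.42), Mapk9 (-0.16) and the Mek gene Map2k1 (-0.09).

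The genes around Myc were described in the same way. Of 11 relatives, partners and antagonists of Myc, 7 were higher and 4 lower, with a median log2 ratio of 0.10. With library totals the median was -0.05, beside -0.10 for all genes. Mycn was the only one of the 8 past the filter to differ more than 2-fold. Of all genes past the filter, 4.17% were more than 2-fold higher and 4.07% more than 2-fold lower. Max, the obligate partner, had 4970 and 3560 reads and a log2 ratio of 0.09 (interval 0.03 to 0.16). The Max-binding repressors Mga (0.78) and Mnt (0.68) were higher and Mxi1 (-0.41) and Mxd4 (-0.66) lower, while Mxd3 (0.10) and Mxd1 (-0.12) had intervals that included no change. Mlx and Mlxip, of the related nutrient-sensing branch, had log2 ratios of 0.38 and 0.45.

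All 18 of a list of known Myc target genes, mostly of ribosome production and growth, had a higher TPM in mutant cells, and none differed more than 2-fold. Their median log2 ratio was 0.44, beside 0.04 for all genes that reached a mean TPM of 1. All 18 were past the filter, where the median of all genes was 0.08. The list had been drawn up with earlier results of these data known, so the count of 18 is a description and not a test. With library totals 17 of the 18 were higher and the median was 0.30, beside -0.10 for all genes. With the trend on GC content and length removed, 17 were higher. The highest were Polr1b (0.96), a subunit of RNA polymerase I, Nolc1 (0.77), Ddx21 (0.76) and Wdr43 (0.73), all nucleolar. The lowest were Odc1 (0.35), the first enzyme of polyamine synthesis, Npm1 (0.30), Cad (0.26), an enzyme of pyrimidine synthesis, and Fbl (0.12), which methylates ribosomal RNA. Myc had a log2 ratio above that of every one of these 18 genes.

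**Figure D5:**
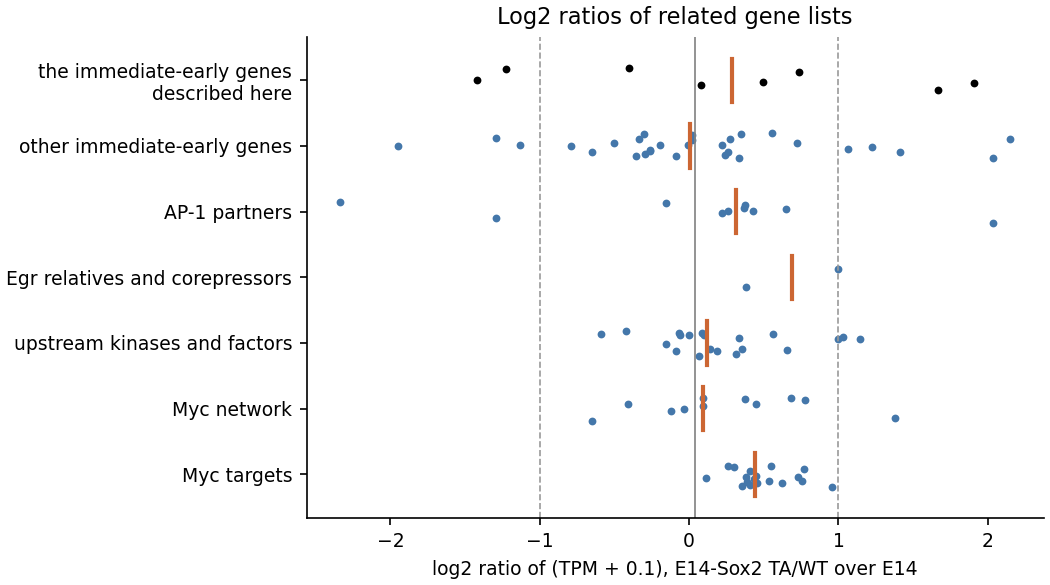
Log2 ratio of TPM + 0.1 (mutant over E14) for the genes of each list that reached a mean TPM of 1 (1 point per gene), with the median of each list as an orange bar, the median of all genes (0.04) as a solid line and dashed lines at 2-fold. The immediate-early genes spread to both sides, and all 18 Myc targets lie to the right of 0. The lists were drawn up with earlier results of these data known.

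Features that had played no role in the choice of the 10 genes were described as well, and not all of them were shared. The 10 genes had 1 to 4 exons, with a median of 2, beside a median of 9 for all genes past the filter with a matched transcript. Jun, Junb, Jund and Ier2 had a single exon, as did 235 genes past the filter (2.60%), whose median log2 ratio was 0.26. The median transcript length was 2094 bases for the 10 genes and 2733 for all, and the median GC content was 55.5% and 50.5%. The pentamer ATTTA, the core of AU-rich decay elements, had a median density after the stop codon of 2.87 per kb in the 10 genes and 1.30 in all. Ier3 had the highest density (8.16 per kb), followed by Fos (4.91), Myc (4.52), Junb (4.12) and Jun (3.24), and Ier2 had none. At least 3 copies were present in 4 of the 10 genes and in 34.8% of all genes past the filter with such a sequence. The genes of high density included Myc and Junb, which were higher in mutant cells, and Fos, which was lower. Myc and Junb held only 2 copies each, in 442 and 485 bases after the stop codon, whereas Fos held 4 in 815 bases.

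The 250 bases before the RefSeq start are shown for Junb and Fos, the pair of AP-1 genes with a ratio past 2-fold in opposite directions for which the RefSeq and GENCODE starts lay within 30 bases of each other. Both are from GRCm38.p6 and are printed in the direction of transcription, with matches to the motifs below in capitals.
Junb, chr8:84978749-84978998, minus strand: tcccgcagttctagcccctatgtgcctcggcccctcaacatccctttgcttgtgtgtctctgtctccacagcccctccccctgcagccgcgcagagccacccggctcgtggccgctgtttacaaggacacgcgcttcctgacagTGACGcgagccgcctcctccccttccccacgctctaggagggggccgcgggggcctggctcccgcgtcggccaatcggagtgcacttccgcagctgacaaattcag
Fos, chr12:85473640-85473889, plus strand: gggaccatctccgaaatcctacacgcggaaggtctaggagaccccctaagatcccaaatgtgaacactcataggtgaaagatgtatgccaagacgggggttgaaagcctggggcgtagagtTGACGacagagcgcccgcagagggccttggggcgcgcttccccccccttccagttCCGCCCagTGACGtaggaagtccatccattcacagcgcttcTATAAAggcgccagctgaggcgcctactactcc
The Fos window held a TATAAA at -33 to -28 from the start, a GGGCGG (the Sp1 site) on the opposite strand at -74 to -69, and a TGACG, the front of the cAMP response element TGACGTCA, at -129 to -125 and at -66 to -62. The Junb window held a TGACG at -106 to -102.

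Motifs were searched on both strands in the windows of 7 of the 10 genes (Fos, Fosb, Jun, Junb, Jund, Egr2 and Ier3), counting a match in any of the windows of Egr2, and the share of all 32851 RefSeq windows of the same length is given with each. GGGCGG was found in Fos, Fosb, Jun, Egr2 and Ier3 (5 of 7) and in 32.7% of all windows. TGACG, added to the search after the values had been seen, was found in Fos, Fosb, Junb and Egr2 (4 of 7) and in 17.8% of all windows. TATAAA was found in Fos alone and in 12.4% of all windows, and the CArG box, the site of Srf, in Egr2 alone and in 1.47%. The Egr site GCGNGGGCG was found in Fosb, where it overlaps a GGGCGG, and in 4.70% of all windows. The full element TGACGTCA (1.55% of all windows) and the AP-1 site TGANTCA (6.75%) were found in none of the 7. Jund held none of these motifs, but its RefSeq start lies 1210 bases before that of the matched GENCODE transcript, so its window is not the sequence just before the GENCODE start. A match is a string of letters in the window and does not show that a factor was bound. Sites beyond these 250 bases could not be seen, nor could any in Egr1, Ier2 and Myc, which had no window. A motif not found here may therefore lie elsewhere.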

How the data were processed

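RNA-seq of polyadenylated RNA from E14 and E14-Sox2 TA/WT mouse ESCs (1 library each, NovaSeq) was used. The table deposited by the authors gives read counts, FPKM and TPM for each mm10 gene. In it the deposited counts are not normalized, FPKM as deposited is relative to transcript length and library size, and TPM as deposited is FPKM rescaled to a common sum. The submitters' processing notes name bcl2fastq 2.20.0, Trimmomatic, HISAT2 2.1.0 and StringTie 2.1.3b. The counting of reads that map to several genes is not given in the sources used here. All columns of per-sample values were used.

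Genes that reached a TPM of 10 in either library, the filter of the study's methods, were compared by the TPM ratio without a pseudocount, and differences of more than 2-fold were counted. The 95% intervals of ratios were exact (Clopper-Pearson on the read counts), as were those of levels (Poisson). They cover counting error only, as does the floor of 3 reads, because PCR reads without molecular identifiers are not independent molecules. Medians of gene lists were taken over log2 ratios of TPM + 0.1 for genes that reached a mean TPM of 1. Alternatives were TMM scaling (edgeR 4.0.16), size factors (DESeq2 1.42.0), CPM, the FPKM ratio, pseudocounts of 0.1 and 1, other TPM filters and folds, centring on the median of all genes or of the chromosome, and removal of the trend on length and GC content of transcripts (20 bins of each). The ratio computation was tested on simulated data. Transcript features came from GENCODE M21, and promoters and gene positions from RefSeq (GRCm38), with Python 3.11.15. Of the 10 genes, 7 matched a promoter entry, and Egr1, Ier2 and Myc did not. Apart from the overlapping antisense genes Junos (232 bases shared with Jun) and Gm11175 (543 bases shared with Jund), no transcript of another gene matched one of the 10 genes with at least 95% identity over at least 100 bases (blastn 2.17.0). The planned comparison of protein sequences was not made here.

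The 10 genes and all gene lists were chosen with earlier results of these data known. The genes named were the 10 genes, all AP-1 partners, Egr relatives and Myc network genes that reached a mean TPM of 1, the 4 highest and 4 lowest of the other lists, and genes needed to account for low reads. Zfp36, Prdx2 and the neighbors of the genes were named after their values had been seen. The values of 1 AP-1 partner with a low read count are not reported here.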

Additional observations from a re-analysis of the deposited data

How the results depend on the processing

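No paired analysis was possible because each genotype had 1 library, and for the same reason no library could be left out. The number of immediate-early genes more than 2-fold higher was 2 under most settings. It was 3 with the trend on GC content and length removed and at 1.5-fold (Ier3 added), where 3.64% and 14.2% of all genes tested were higher, and without a TPM filter (Egr2 added), where 10.1% were. The number more than 2-fold lower was 0 with the trend removed and 0 at 3-fold (3.32% and 1.5% of all genes). It was 2 (Fos and Jund) with a TPM of at least 1, a TPM of at least 5 or no filter, where 9.95%, 5.55% and 18.7% of all genes were lower. The Egr1 ratio was -0.06 with CPM and with FPKM, -0.00 centred on the median of all genes and -0.05 centred on its chromosome. Medians of lists moved with the FPKM ratio to -0.14 for other immediate-early genes, -0.022 for upstream kinases and factors and 0.30 for Myc targets. Centring on the median gave 0.037 for upstream kinases and factors and 0.36 for Myc targets, and TMM gave 0.39 for Myc targets. With the trend on GC content and length removed, an alternative chosen after seeing the data, the median of Myc targets was 0.49. With a mean TPM of at least 10 the median of the Myc network was 0.41 and that of AP-1 partners 0.05. The share of Jund in the Jun family was 86.1% (E14) and 53.3% (E14-Sox2 TA/WT) with reads per kb. FPKM, TMM and centring on the median of all genes shift all genes by nearly the same amount, the share of Jund follows the length taken for it, and the cause of the other shifts was not tested. Depth limited Fosb and Egr2, with at most 33 reads in a library.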

Other observations

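The genes next to the immediate-early genes, a comparison made after the values had been seen, were described by the nearest 3 genes on each side with a mean TPM of at least 1. All 6 neighbors of Jund were lower in mutant (E14-Sox2 TA/WT) cells, with a median log2 ratio of -0.46 and a range from -2.89 to -0.04. For comparison, 6216 of the 13269 genes in the table at that level were lower. Jund was singled out from the 10 genes with the values known. The median of the genes on chromosome 8 past the filter was 0.28. That filter required a TPM of 10, which the Jund neighbors Gm3336 and Pde4c did not reach, so the sets differ in level. The lowest neighbor was Gdf15, a stress-induced secreted factor 65269 bases from Jund, with 2503 reads in E14 and 229 in mutant cells. Next to Fos lay Jdp2, 121382 bases away (log2 ratio -2.37), and Mfsd7c, a transporter gene (701 and 110 reads, log2 ratio -2.10), and the median of the 6 neighbors of Fos was -0.55. The 6 neighbors of Junb had a median log2 ratio of 0.38 and a range from -0.43 to 0.48, all below the 1.67 of Junb. Those of Myc had a median of 0.42, with the noncoding RNA gene Pvt1, 47625 bases away, at 0.52 (1456 and 1398 reads). Over the 60 neighbors of the 10 genes the median was 0.01, and 6 differed more than 2-fold. Among genes past the filter, 4.17% were more than 2-fold higher and 4.07% more than 2-fold lower. With the filter set at a TPM of 1, these shares were 6.45% and 9.95%. Whether the neighbors differed more often than other genes was not tested.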
